A study of Mus musculus with 474 samples.

Results

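Ucp1 RNA separated a minority of female skeletal muscle libraries from the rest. Each library of the series came from the muscle of 1 Diversity Outbred mouse, an outbred stock derived from several inbred founder strains, so each animal had its own genotype. All animals, those of both classes included, were fed the same diet, high in fat and sugar and labelled 45% fat, and were harvested as adults. The study's methods name the muscle as gastrocnemius. Of the libraries labelled female, the 40 with a Ucp1 level of at least 5 CPM, the count scaled to a total of 1000000 counts, were called Ucp1-high. They were 17.02% of the females and 8.44% of all libraries. Females with less than 0.5 CPM, 67.2% of them, were called Ucp1-low, and the 37 between these limits were left out. No animal received a treatment that differed between the classes. Both classes held animals of generations 17, 18, 19, 21 and 23 of the stock, and generation was a covariate in the main tests across genes. The classes were chosen by the measured level of Ucp1, so Ucp1 itself is described without a test, and the comparisons concern the other genes.

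Ucp1 encodes a carrier of the inner mitochondrial membrane that lets protons return to the matrix without making ATP, so that the energy of fuel oxidation is released as heat. It defines brown and beige adipocytes, which burn fat under the control of sympathetic nerves. Noradrenaline acts on beta-adrenergic receptors, cAMP rises, lipid droplets release fatty acids, and these serve as fuel and as activators of the carrier. Muscle fibres do not make Ucp1, but in mice brown adipocytes can lie between muscle bundles of the hind limb, in numbers that differ between inbred strains. Because the whole muscle was extracted, a library with fewer adipocytes and one with less RNA per adipocyte cannot be told apart.

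Ucp1 lies on chromosome 8 (GRCm38, bases 83290352 to 83298452, plus strand). The promoter stretches below are shown for Ucp1, which set the classes, and for Slc27a2, which had the largest difference among the brown adipocyte genes described next. Each runs 5′ to 3′ from 250 bases before to 50 bases after the start of the gene, as given by RefSeq for GRCm38.p6, at chr8:83290098-83290397 and chr2:126552774-126553073, both on the plus strand. Capitals mark the hexamer AGGTCA, or TGACCT when read on the other strand, the core half-site of many nuclear receptors.
Ucp1: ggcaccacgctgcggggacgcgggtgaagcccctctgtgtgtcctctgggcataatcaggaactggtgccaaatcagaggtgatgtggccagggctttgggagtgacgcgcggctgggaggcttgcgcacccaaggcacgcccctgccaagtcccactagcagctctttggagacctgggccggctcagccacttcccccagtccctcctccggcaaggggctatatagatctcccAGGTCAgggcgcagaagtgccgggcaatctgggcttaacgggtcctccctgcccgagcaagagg
Slc27a2: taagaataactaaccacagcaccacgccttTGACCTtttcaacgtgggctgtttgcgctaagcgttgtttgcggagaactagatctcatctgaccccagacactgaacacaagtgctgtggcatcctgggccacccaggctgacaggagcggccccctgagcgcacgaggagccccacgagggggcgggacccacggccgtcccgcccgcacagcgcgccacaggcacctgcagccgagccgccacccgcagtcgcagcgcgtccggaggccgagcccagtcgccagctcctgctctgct
The hexamer began 14 bases before the start of Ucp1 and 220 bases before that of Slc27a2. On either strand it was in 5340 of 32851 RefSeq promoters of the same length (16.3%), or in at least 1 promoter of 18.1% of the genes. Among Ucp1 and the brown adipocyte genes of the list used below, 6 of the 22 with a promoter entry held it. This is a match of letters and was not tested as a binding site.

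In the Ucp1-high females, Ucp1 ran from 6.36 to 210.3 CPM with a median of 41.2 CPM. In the Ucp1-low females it ran from 0 to 0.499 CPM with a median of 0.0791 CPM, and 49 libraries (31.01% of the class) had no Ucp1 count, which allows up to 3 counts, or 0.0181 to 0.0836 CPM over the depths of this class. The high class was thus spread over more than an order of magnitude. The 3 libraries just inside the upper limit had 6.36, 6.67 and 6.81 CPM, and the 3 just outside it had 4.54, 4.16 and 3.57 CPM. At the lower limit, libraries with 0.499, 0.458 and 0.446 CPM were called low and libraries with 0.518, 0.524 and 0.529 CPM were left out. Ucp1-high females made up 9, 9, 9, 5 and 8 of the libraries of generations 17, 18, 19, 21 and 23, beside 30, 30, 36, 35 and 27 Ucp1-low females. Among the males the same limits gave 9 high libraries (3.77% of males), 23 between (9.62%) and the remaining 86.6% low.

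**Figure D1:**
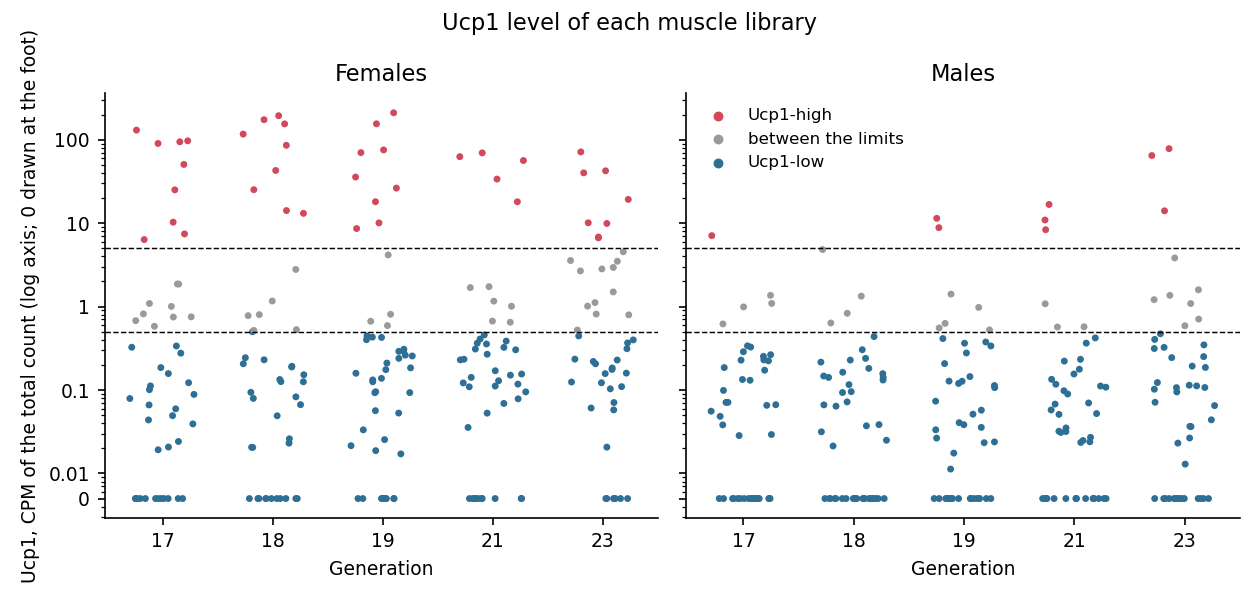
Ucp1 in each library by generation (x axis) for females and males, in CPM of the total count on a log axis, with libraries without a Ucp1 count drawn at the foot. Each point is 1 library, dashed lines mark the limits of 5 and 0.5 CPM, and every generation holds Ucp1-high females.

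The total count was lower in the Ucp1-high females, at 75.6 ± 13.4 M (SD, n = 40, M being 1000000 counts) against 83.7 ± 18.3 M in the Ucp1-low females (SD, permutation test, 2-sided, p = 0.00722). B-cell RNA also set libraries apart. The summed level of 4 B-cell genes (Cd79a, Cd79b, Ms4a1 and Cr2) was at most 0.769 CPM in 23 of the Ucp1-high females, and 14.3 CPM or more in the other 17. A sum above 4 CPM, a mean of 1 CPM per gene, was found in 17 of 40 Ucp1-high females (42.5%), 3 Ucp1-low females (1.90%) and 2 of the 37 females between the limits. These are called B-cell libraries below. Since the limit of 4 CPM was set after the values were seen, the shares are given without a test, and the main results are given with and without the 20 B-cell libraries of both classes. Finally, 3 libraries labelled female had sex-linked RNA that went against the label, 2 of them Ucp1-low and 1 between the limits, and without them no call on a gene named here changed.

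Between the Ucp1-high and Ucp1-low females, 19754 genes were tested besides Ucp1. By edgeR's quasi-likelihood test at an adjusted p under 0.05, 3110 genes (15.7%) were higher in the Ucp1-high class and 2341 (11.9%) were lower. Scaled by total count alone, in place of the trimmed mean of M-values (TMM), the split was 4939 higher and 1.96% of genes lower. Leaving out the B-cell libraries, 3.42% of genes were higher and 0.835% lower, and 95.4% and 89.1% of these were among the calls on all libraries. Calls of at least 1.5-fold were mostly rises, with 6.94% of genes as rises and 0.223% as falls in all libraries, and 1.36% and 0.0506% without the B-cell libraries.

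Brown adipocyte genes were higher in the Ucp1-high females. Of 25 tested genes of this list, 17 were higher, 1 was lower and 7 did not pass, with a median log2 difference of 1.10, against -0.01 over all genes tested. Without the B-cell libraries 14 were higher and none of the 25 was lower. Cidea encodes a protein of the lipid droplet surface that is abundant in brown fat (chromosome 18, bases 67343604 to 67367785). It ran from 0.163 to 2.03 CPM with a median of 0.736 CPM in the Ucp1-low females, and from 1.31 to 35.3 CPM with a median of 9.52 CPM in the Ucp1-high females. In 38 of the 40 Ucp1-high libraries Cidea was above the highest Ucp1-low library, and the classes overlapped only through the lowest Ucp1-high ones. The log2 difference was 4.16 ± 0.11 (SE, edgeR adjusted p = 1.03e-84), and 4.13 without the B-cell libraries.

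Otop1 encodes a proton channel of the plasma membrane (chromosome 5, bases 38275972 to 38304217). Its level was 0.0963 to 1.29 CPM (median 0.404 CPM) in the Ucp1-low females and 0.286 to 10.3 CPM (median 2.75 CPM) in the Ucp1-high females, of which 35 lay above every Ucp1-low library. The difference was 3.14 ± 0.11 on the log2 scale (edgeR adjusted p = 9.06e-65). Cidea and Otop1 were thus both higher in the Ucp1-high class, in nearly all of its libraries. The largest difference of the list was that of Slc27a2, whose product activates very long chain fatty acids and whose promoter is printed above. The median Ucp1-low library had no Slc27a2 count, and the highest had 0.292 CPM. In the Ucp1-high class it ran from 0.101 to 2.56 CPM with a median of 0.781 CPM, a log2 difference of 5.26 ± 0.26 (edgeR adjusted p = 3.37e-47) at a low absolute level. A female left out between the limits, with 0.753 CPM of Ucp1, had 9.86 CPM of Slc27a2, above every Ucp1-high female.

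Several other genes with a known place in brown fat followed. Kcnk3, a potassium channel of brown adipocytes, had a median of 2.82 CPM against 0.529 CPM and a log2 difference of 2.90 ± 0.12. Slc36a2, an amino acid carrier at the adipocyte surface, had a median of 10.9 CPM against 2.70 CPM and a log2 difference of 2.10. Both were above the Ucp1-low median in 40 of 40 Ucp1-high libraries. Letmd1, a mitochondrial protein needed for heat production by brown fat, was also detected in every Ucp1-low library, where it ran from 4.40 to 8.87 CPM, while 30 Ucp1-high libraries lay above that range, with a log2 difference of 1.10. Gk, the kinase that recycles glycerol, differed by 1.54, Nrg4, a secreted factor of brown adipocytes, by 1.39, and Clstn3, whose locus gives an adipocyte protein of the lipid droplet, by 1.66 on the log2 scale. Each of these 6 genes also passed without the B-cell libraries. Strand use in the counting was not given in the sources used here, and Cidea, Kcnk3, Nrg4 and Dio2 overlap another gene of the table, so part of their counts may belong to the neighbour.

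Regulators and the thyroid hormone enzyme of brown fat gave mixed results. Dio2, which makes active thyroid hormone within the cell, had a median of 4.59 CPM in the Ucp1-high and 3.22 CPM in the Ucp1-low females, with overlapping ranges and a log2 difference of 0.63 ± 0.10 (edgeR adjusted p = 7.48e-09). Prdm16, a co-regulator of brown fat identity, differed by 0.21 ± 0.07 (edgeR adjusted p = 0.0232) and no longer passed without the B-cell libraries (0.21, adjusted p = 0.221), with the size of the difference unchanged. Prdm16 also did not pass at a given adipocyte score (0.13, adjusted p = 0.462) or with the low class cut at 0.1 CPM (0.17, adjusted p = 0.113). Ebf2, which opens chromatin at brown adipocyte genes, differed by 0.11 (adjusted p = 0.0763), Tbx1, a marker proposed for beige cells, by 0.25 (adjusted p = 0.112), and the nuclear receptor Ppara by 0.10 (adjusted p = 0.309), a gene that passed at a given level of adipocyte RNA, the fit described further on (0.25, adjusted p = 0.0418), but not in that fit without the B-cell libraries (0.28, adjusted p = 0.132). Under total count scaling Ebf2 (0.18, adjusted p = 0.00303) and Tbx1 (0.32, adjusted p = 0.0351) passed, and Ebf2 also passed with the library block as a covariate (0.13, adjusted p = 0.0286), with limma (adjusted p = 0.0351) and with the filter at 1 CPM (adjusted p = 0.0456). With the low class cut at 0.1 CPM Tbx1 passed too (0.33, adjusted p = 0.0365). All 3 were above the Ucp1-low median in 23 to 27 of 40 Ucp1-high libraries. Zic1, a transcription factor used as a marker of classical brown fat, was the 1 member that was lower, by -0.39 ± 0.13 (edgeR adjusted p = 0.0184), a call that was lost without the B-cell libraries (-0.21, adjusted p = 0.591) and under total count scaling. Irf4, a transcription factor that works with a coactivator in brown fat and is also used by lymphocytes, was higher by 1.63 in all libraries and by 1.21 without the B-cell libraries (adjusted p = 8.87e-07).

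Genes that brown adipocytes share with muscle fibres mostly did not pass the test. Of 12 such genes 1 was higher and none was lower, with a median log2 difference of -0.02. Cox7a1 and Cox8b, muscle-type subunits of the last enzyme of the respiratory chain, had medians of 72.3 and 137.03 CPM in the Ucp1-high and 76.1 and 141.3 CPM in the Ucp1-low females, and neither passed the test. For Ppargc1a, the coactivator of mitochondrial gene expression, the difference was -0.18 ± 0.12 (adjusted p = 0.283). Cpt1b, which admits fatty acids to mitochondria, Fabp3, which carries them in the cytosol, and Cycs, the electron carrier cytochrome c, also stayed short of the threshold. The gene that was higher, Ucp2, a carrier of the Ucp1 family common in immune cells, differed by 0.64 in all libraries and by 0.23 without the B-cell libraries (adjusted p = 0.213). Without these libraries 1 of the 12 was again higher, but it was Slc25a20, the carrier that brings acylcarnitines into mitochondria, with 0.17 (adjusted p = 0.00800) against 0.06 (adjusted p = 0.206) in all libraries, named here after its values were seen.

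Within the Ucp1-high females 10 genes were set against the level of Ucp1. Over the 40 libraries, Pearson's r between log2 CPM of Ucp1 and Cidea was 0.920 and Spearman's rho was 0.932. Since the level of Ucp1 chose these libraries, and most of the 10 genes looked at were known to differ between the classes, the correlations are given as a description, with no p. Leaving out the 2 libraries farthest from the median of Ucp1 left r at 0.917, and within generations 17, 18, 19 and 23 it was 0.969, 0.936, 0.931 and 0.923, while generation 21 held too few libraries. Letmd1 (r = 0.910), Otop1 (r = 0.894), Kcnk3 (r = 0.858), Slc27a2 (r = 0.732) and Adrb3 (r = 0.693) came next. Adipoq and Fasn, which brown and white adipocytes both use, had r = 0.544 (rho = 0.551) and r = 0.603 (rho = 0.603). Dio2 had r = 0.569 (rho = 0.567), and Lep had the lowest value of the 10, with r = 0.229 (rho = 0.190).

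**Figure D2:**
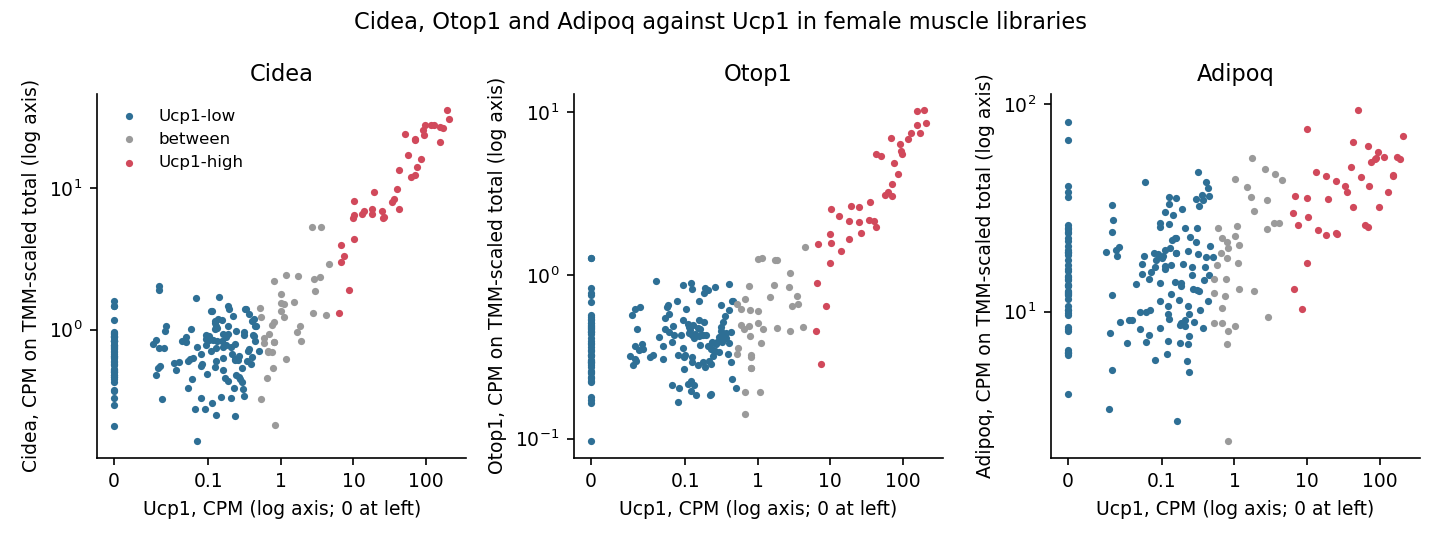
Cidea, Otop1 and Adipoq (y axes, CPM on the TMM-scaled total, log axes) against Ucp1 (x axis, CPM, log axis, 0 at the left end) in the female libraries, 1 point each, coloured by class. Cidea and Otop1 climb with Ucp1 across the Ucp1-high libraries from medians of 0.736 and 0.404 CPM in the Ucp1-low ones, and Adipoq ranges widely in every class.

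General adipocyte genes were higher as well. Of 17 tested genes of adipocytes in general or of white adipocytes, 14 were higher and 3 did not pass, with the same counts without the B-cell libraries, and the median log2 difference was 1.22. Adipoq, the adipocyte hormone adiponectin, ran from 2.96 to 82.1 CPM (median 15.1 CPM) in the Ucp1-low and from 10.3 to 93.8 CPM (median 40.3 CPM) in the Ucp1-high females. Its classes overlapped broadly, since only 1 Ucp1-high library lay above every Ucp1-low one, and the log2 difference was 1.28 ± 0.13 (edgeR adjusted p = 3.22e-17). Cfd, the adipocyte protease adipsin, differed by 1.73, Plin1, which coats the fat droplet, by 1.68, Mrap, a receptor partner for corticotropin, by 1.68, and Acvr1c, a receptor for activin-like ligands in adipocytes, by 1.59. Fabp4, the fatty acid carrier of adipocytes, differed by 1.20 and Pparg, the nuclear receptor that makes cells adipocytes, by 0.94 ± 0.07.

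Lep, the hormone that white adipocytes make in proportion to their fat store, stood apart from these genes. It ran from 0.0595 to 96.9 CPM (median 4.84 CPM) in the Ucp1-low and from 0.118 to 26.4 CPM (median 5.26 CPM) in the Ucp1-high females, and its difference was -0.40 ± 0.27 (adjusted p = 0.284). Nnat, an imprinted gene of white adipocytes, also did not pass (0.09, adjusted p = 0.796).

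The classes were next compared at a given level of general adipocyte RNA, with a score from Adipoq, Cfd, Plin1, Retn and Lep as a further covariate, these 5 getting no test. Under this fit 1471 genes (7.45%) were higher and 3.35% lower, and without the B-cell libraries 1.28% were higher and 0.506% lower. The score did not make the classes equal in general adipocyte RNA, since of the 12 other genes of that list 9 were still higher and 1 was lower (median 0.39), and 6 were higher and 1 was lower without the B-cell libraries. Of the brown adipocyte genes 15 of 25 were higher in this fit, Ppara among them, and 11 of 25 without the B-cell libraries. Cidea differed by 3.68, Otop1 by 2.52, Slc27a2 by 4.24, Kcnk3 by 2.01 and Letmd1 by 0.99 on the log2 scale at the same score, and all 5 passed. Slc36a2 kept 1.13 of its 2.10, and Pparg 0.41 of its 0.94. Nnat was now lower, by -1.14 (edgeR adjusted p = 4.55e-06), and by -1.14 without the B-cell libraries (adjusted p = 0.00154).

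Of 13 tested genes of the adrenergic and cAMP pathway, 7 were higher and 1 was lower, and 7 were higher and none lower without the B-cell libraries. Under total count scaling 9 were higher and none lower. At a given adipocyte score 6 of 13 were higher, with the median going from 0.46 to 0.07, and 4 of 13 without the B-cell libraries. Adrb3, the beta-adrenergic receptor of adipocytes, ran from 0.0526 to 6.68 CPM (median 1.03 CPM) in the Ucp1-low and from 0.677 to 24.2 CPM (median 7.48 CPM) in the Ucp1-high females, 22 of which lay above every Ucp1-low library. The log2 difference was 2.75 ± 0.17 (edgeR adjusted p = 1.88e-36), and 1.32 at a given adipocyte score (adjusted p = 7.85e-10). Adrb1, the receptor of the heart that brown fat precursors also carry, differed by 1.98 at a median of 0.136 against 0.0317 CPM. Downstream, the regulatory subunit Prkar2b of the cAMP-dependent kinase was higher by 2.20, the cyclase Adcy3, induced in brown fat by cold, by 1.00, and Pde3b, which breaks cAMP down in response to insulin, by 1.42 on the log2 scale. These 3 also passed without the B-cell libraries and at a given adipocyte score.

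Of the sympathetic nerve genes tested, 1 of 4 was higher, beside 15.7% of all genes, and none of 4 was at a given adipocyte score or in males. The gene that was higher was Th, the first enzyme of noradrenaline synthesis, at a median of 0.0810 against 0.0220 CPM, near the level of a few counts. Its log2 difference was 1.81 ± 0.33 (edgeR adjusted p = 1.44e-06), and 0.92 at a given adipocyte score (adjusted p = 0.188).

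Fatty acid synthesis genes were higher in the Ucp1-high females, 13 of 19 in all libraries and 13 of 19 without the B-cell libraries. Fasn, the fatty acid synthase, ran from 11.1 to 321.5 CPM (median 48.5 CPM) in the Ucp1-low and from 51.6 to 1275 CPM (median 359.4 CPM) in the Ucp1-high females, 25 of which were above every Ucp1-low library. Its log2 difference was 2.77 ± 0.15 (edgeR adjusted p = 1.12e-41), and 1.68 at a given adipocyte score (adjusted p = 1.03e-16). Elovl6, which lengthens palmitate, differed by 2.57, Thrsp, a thyroid hormone responsive factor of lipogenesis, by 2.27, and Slc25a1, which exports citrate from mitochondria, by 1.92. Acly, which splits that citrate, differed by 1.60 and Acaca, which makes malonyl-CoA, by 1.34. Me1, the malic enzyme, and Mlxipl, the carbohydrate response factor, did not pass (-0.02, adjusted p = 0.720, and -0.05, adjusted p = 0.446). Both were well expressed in every Ucp1-low library, with at least 145.6 CPM for Me1 and 41.7 CPM for Mlxipl.

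The same rule for the largest rises, applied without the B-cell libraries, named Cidea, Kcnk3, Pck1, Nat8l, Adrb3, Fasn, Arxes2, Elovl6, Ces1f and Thrsp as the first 10, followed by Prkar2b, Slc36a2, Pygl, Cdo1, Chdh, Klb, Agpat2, Cfd, Slc25a1 and Mrap. Pck1, which makes the glycerol backbone of triglyceride in adipocytes, had a median of 126.6 CPM against 16.4 CPM, with 28 Ucp1-high libraries above every Ucp1-low one and a log2 difference of 2.89 ± 0.14 (edgeR adjusted p = 4.72e-48). Nat8l, which makes N-acetylaspartate and is used by brown adipocytes, had a median of 4.52 against 0.630 CPM and a difference of 2.80. Pygl, the glycogen phosphorylase of liver that brown fat also makes, was above every Ucp1-low library in 29 of 40, with a difference of 2.17. Klb, the co-receptor for the hormone Fgf21, differed by 2.00, Cdo1, which degrades cysteine, by 2.02, Chdh, which oxidises choline, by 2.10, and Agpat2, an enzyme of triglyceride assembly, by 1.92. Arxes2, an adipocyte gene that Pparg induces, differed by 2.27 and the carboxylesterase Ces1f by 2.41. All 9 also passed at a given adipocyte score, where Nat8l kept a log2 difference of 1.82, Pck1 of 1.59 and Klb of 0.69.

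Fatty acid oxidation genes showed small differences. Of 20 tested, 6 were higher and none lower in all libraries, 10 were higher without the B-cell libraries, and 13 were higher under total count scaling. At a given adipocyte score 8 were higher, and 13 in that fit without the B-cell libraries, beside 7.45% and 1.28% of all genes. Ehhadh, the peroxisomal enzyme, had the largest difference, at 12.9 against 6.12 CPM in the median and 1.08 ± 0.07 on the log2 scale (edgeR adjusted p = 1.00e-31). The mitochondrial Acaa2 and Cpt2 differed by 0.18 and 0.15, and by 0.26 and 0.24 without the B-cell libraries. Among 12 genes of lipid uptake and release 8 were higher, of which Angptl4, an inhibitor of lipoprotein lipase, by 0.99. Without the B-cell libraries 7 of these 12 were higher, at a given adipocyte score 4, and in that fit without the B-cell libraries 2. Males gave 3 of 12, and none without the B-cell libraries. Of 10 secreted factors of brown fat 2 were higher, of which Igf1 by 0.33, and at a given adipocyte score the difference of Igf1 was 0.02 (adjusted p = 0.943). Nuclear receptors and coactivators gave 1 higher and 4 lower of 15, branched-chain amino acid breakdown 5 higher of 17, glucose and glycerol handling 2 higher and 5 lower of 13, and creatine and calcium cycling 1 higher and 3 lower of 10. Without the B-cell libraries these counts were 2, 3, 1 and 1 higher, with none lower in any of these 4 lists. Under total count scaling they were 2, 12, 3 and 1 higher, with 3 lower in glucose and glycerol handling and none in the other lists. Over all genes tested the shares were 15.7% higher and 11.9% lower in all libraries, 3.42% and 0.835% without the B-cell libraries, and 25.0025% and 1.96% under total count scaling, so that counts such as 2 of 10 or 2 of 13 higher lie near the share over all genes.

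Oxidative and contractile genes of muscle fibres differed little. Over all genes tested 11.9% were lower in all libraries and 0.835% without the B-cell libraries. Among 21 respiratory chain genes 6 were lower and none higher, with differences from -0.10 to -0.01 over all 21, and without the B-cell libraries none of the 21 was called, with a median of 0.04. The 16 genes of the tricarboxylic acid cycle gave 5 lower and none higher in all libraries, and 1 higher and none lower without the B-cell libraries. Under total count scaling no respiratory chain gene was called (median 0.02), and 2 genes of the cycle were higher and 1 was lower. At a given adipocyte score neither list had a gene that was lower, and in that fit without the B-cell libraries 3 of 21 and 4 of 16 were higher, beside 1.28% of all genes. None of the 8 slow fibre genes was called in either fit, and Myh7, the slow myosin heavy chain, had a median of 1477 against 1419 CPM. For the 10 fast fibre genes the counts were 3 lower and none higher, and none called without the B-cell libraries or under total count scaling. Myh4, the fastest myosin heavy chain and one of the 3, was abundant in both classes, at medians of 64343 CPM in the Ucp1-high and 69487 CPM in the Ucp1-low females and differed by -0.09 ± 0.03 (edgeR adjusted p = 0.0320), by -0.02 (adjusted p = 0.844) without the B-cell libraries and by -0.02 (adjusted p = 0.621) under total count scaling. Sln, which uncouples the calcium pump of muscle and gives heat by another route, did not pass (-0.35, adjusted p = 0.281), whereas the calcium channel Ryr2, typical of heart, was higher by 0.91 (edgeR adjusted p = 8.52e-11) at a median of 1.17 against 0.646 CPM. Ryr2 did not pass at a given adipocyte score (0.44, adjusted p = 0.0551) or in males (0.39, adjusted p = 0.640).

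**Figure D3:**
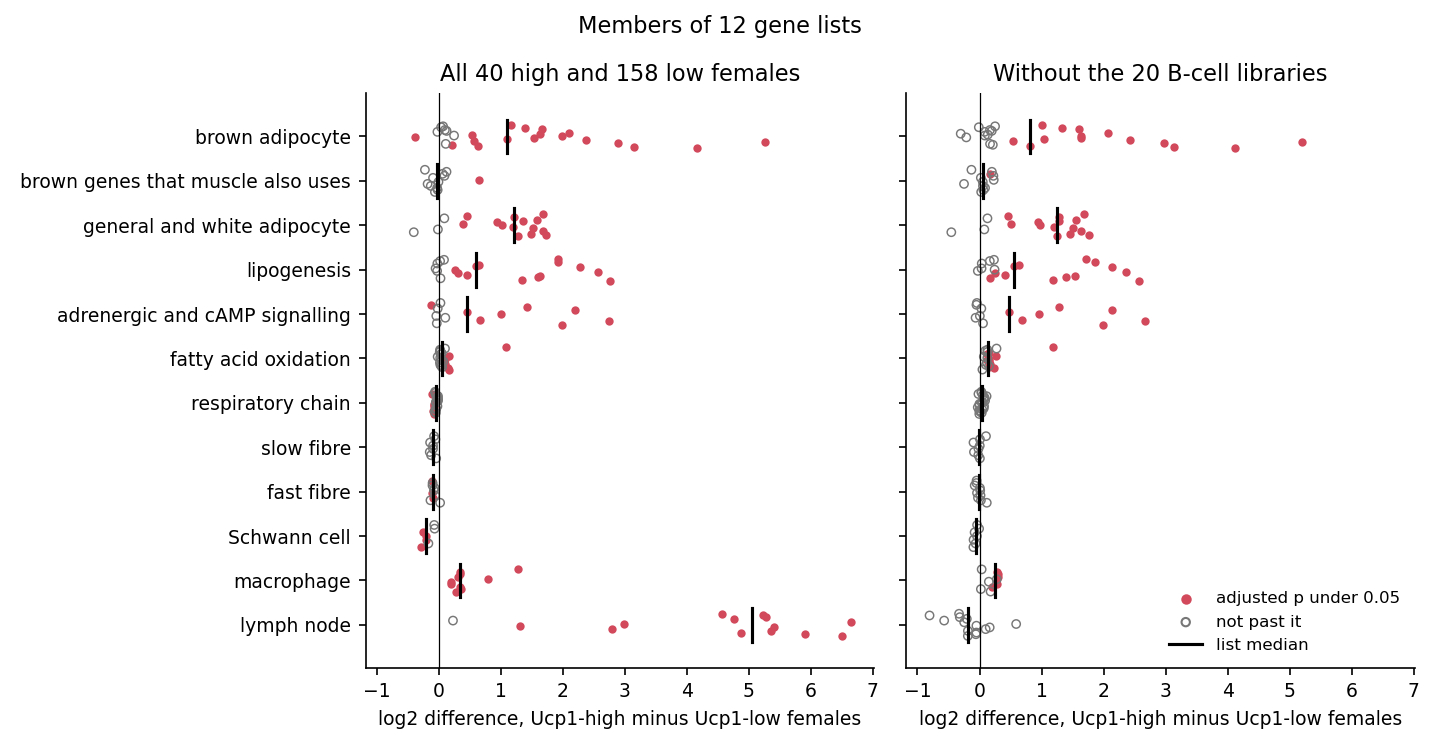
Log2 difference between Ucp1-high and Ucp1-low females (x axis) for the tested members of 12 gene lists, in all libraries and without the 20 B-cell libraries. Each point is a gene, filled where the edgeR adjusted p was under 0.05, and bars are list medians. The brown adipocyte median is 1.10 in all libraries and 0.82 without the B-cell libraries, and the lymph node median is 5.05 and -0.19.

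Several genes known from B cells had larger differences than Cidea in all libraries. Among the 20 largest rises in all libraries of genes with a mean of at least 1 CPM, a call by edgeR and limma alike and 1 direction in every generation, Cidea was the 1 gene of the brown adipocyte list. The others included Cr2, the complement receptor of B cells and follicular dendritic cells, Pax5, the factor that sets B-cell identity, and Ighd, the immunoglobulin of naive B cells, with log2 differences of 6.65, 6.63 and 6.45. In the median, however, Cr2 was at 0.0852 CPM in the Ucp1-high and 0.0281 CPM in the Ucp1-low females, and the maximum was 54.6 against 8.03 CPM. High levels thus came from a minority of the Ucp1-high libraries, and without the B-cell libraries the 3 differences were -0.25, 0.15 and -0.87, none of them passing.

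Of the 14 tested genes of the lymph node list, 13 were higher in all libraries (median 5.05) and none without the B-cell libraries (median -0.19). Their summed level was 11.3 to 677.6 CPM (median 77.0 CPM) in the Ucp1-high and 7.12 to 430.1 CPM (median 50.1 CPM) in the Ucp1-low females. The wide range in the Ucp1-low class came mainly from Ighm, the heavy chain of immunoglobulin M, at 2.005 to 423.4 CPM there, which was the member that did not pass (0.23, adjusted p = 0.565). Cd3e, a chain of the T-cell receptor complex, was higher by 2.79 in all libraries and by 0.10 without the B-cell libraries (adjusted p = 0.953).

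Ucp1 covered a similar span in both kinds of Ucp1-high libraries, from 6.81 to 173.8 CPM (median 42.4 CPM) in the 17 B-cell libraries and from 6.36 to 210.3 CPM (median 40.1 CPM) in the other 23. In the median the B-cell libraries had more Plin1 (47.8 against 32.1 CPM), Adipoq (44.5 against 35.3 CPM) and Fasn (419.1 against 267.99 CPM) but not more Cfd (102.5 against 104.3 CPM), and the 3 Ucp1-low B-cell libraries had a median of 26.4 CPM of Plin1 against 12.4 CPM in the other Ucp1-low females. In the Ucp1-high males Plin1 was at 32.2 CPM in the B-cell libraries and 33.6 CPM in the others, and Fasn at 182.5 and 249.04 CPM. These medians are given without a test. Each generation gave 3 to 5 of the 17, and each of 5 blocks of consecutive library numbers gave 2 to 4. Among the 9 Ucp1-high males 3 were B-cell libraries, beside 6 of the 23 males between the limits and 2 Ucp1-low males (0.966%). Whether lymphocyte RNA has a part in any other difference between the classes was not tested beyond leaving these libraries out.

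**Figure D4:**
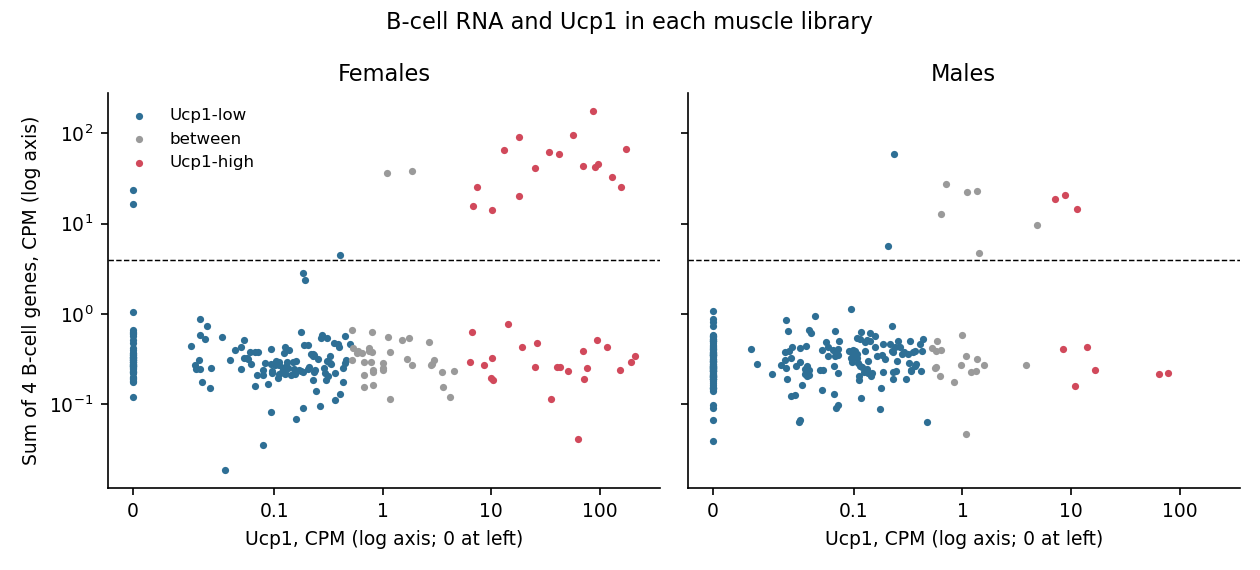
Summed level of 4 B-cell genes (y axis, CPM on the TMM-scaled total, log axis) against Ucp1 (x axis, CPM, log axis, 0 at the left end) in each female and male library, coloured by class, with the limit of 4 CPM dashed. In females 17 Ucp1-high, 2 intermediate and 3 Ucp1-low libraries lie above the limit, and in males 3, 6 and 2.

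Markers of other cells were compared as well. Over all genes tested 15.7% were higher in all libraries and 3.42% without the B-cell libraries. All 10 macrophage genes were higher in all libraries (median 0.34), 5 of 10 without the B-cell libraries (median 0.24) and 3 of 10 at a given adipocyte score in all libraries. None of 10 was called in that fit without the B-cell libraries or in males. Lyz2, the lysozyme of macrophages, differed by 0.79 and Mpeg1, a pore-forming protein of phagocytes, by 1.28, and without the B-cell libraries by 0.28 and 0.03, neither then passing (adjusted p = 0.0793 and 0.951). The summed level of the 10 genes ran from 56.97 to 186.45 CPM in the Ucp1-low and from 88.5 to 387.9 CPM in the Ucp1-high females, or to 166.2 CPM at most in the 23 without B-cell RNA. Epithelial genes were low in most libraries, with a summed median of 1.13 CPM in the Ucp1-high and 0.826 CPM in the Ucp1-low females and maxima of 12.8 and 9.82 CPM. Of 4 tested 4 were higher. Their median log2 difference was 1.43, above those of the brown (1.10) and general (1.22) adipocyte lists, and 0.45 without the B-cell libraries. The keratins Krt8 and Krt19 were at medians of 0.218 and 0.509 against 0.0787 and 0.346 CPM. Without the B-cell libraries 1 of the 4 passed, Krt19 at 0.63 (adjusted p = 0.0145).

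Progenitor genes gave 3 of 8 higher, among them Dpp4 and Pi16, which mark connective tissue progenitors, at 0.50 and 0.32, and both passed without the B-cell libraries (0.31 and 0.48). Endothelial genes gave 1 higher and 1 lower of 9, and none of 9 without the B-cell libraries, while total count scaling gave 2 higher and none lower. Their summed level had a median of 335.1 CPM in both classes. Schwann cell genes gave 4 of 7 lower, among them the myelin gene Prx (-0.25, adjusted p = 0.0249), and none of 7 without the B-cell libraries or under total count scaling. At a given adipocyte score 5 of 7 were lower, with a median of -0.34 against -0.20, and none of 7 in that fit without the B-cell libraries. None of 5 erythroid genes was called in either fit. What part these cells have in the other differences was not tested.

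The falls named by the rule, which asks for a mean of at least 1 CPM and 1 direction in every generation, were small. In all libraries the largest of these 10 were those of the predicted gene Gm5532, Ush1c, a scaffold protein, and Mest, an imprinted gene that tracks fat tissue growth, at -0.60, -0.60 and -0.54. Mest and Ush1c did not pass without the B-cell libraries (adjusted p = 0.186 and 0.114). At a given adipocyte score Mest was lower by -1.12 (edgeR adjusted p = 1.54e-10). The falls named without the B-cell libraries were led by Gm5532 (-0.56, adjusted p = 0.0486), Pcp4l1, a relative of a calmodulin regulator (-0.50, adjusted p = 0.0140), Zfp697, a zinc finger gene (-0.46, adjusted p = 0.0318), and Gcnt2, a glycan-branching enzyme (-0.43, adjusted p = 0.00828). The thrombin receptor F2r had a median of 7.98 against 9.25 CPM and Lgi1, a secreted protein best known from neurons, 7.88 against 9.76 CPM, with 33 of 40 Ucp1-high libraries below the Ucp1-low median for each gene.

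The males were classed by the same limits of their own Ucp1, which gave a comparison that shares no library with that of the females. Between 9 Ucp1-high males (7.08 to 78.2 CPM of Ucp1, median 11.4 CPM) and the Ucp1-low males, 1.83% of genes were higher and 51 genes (0.258%) lower, and without the B-cell libraries 91 (0.461%) were higher and 8 (0.0405%) lower. The genes higher in both sexes were 95.3% of the male and 11.1% of the female calls. Of the 51 lower, 34 were lower in females, or 66.7% and 1.45%. Of the 3110 genes higher in females, 2488 had a positive difference in males, where 48.4% of all genes tested had one.

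Cidea in the 9 Ucp1-high males, in order of their Ucp1, was 8.43, 3.65, 6.61, 4.76, 8.30, 14.3, 7.02, 14.2 and 13.6 CPM, against a highest value of 2.43 CPM in the Ucp1-low males, so that the classes did not overlap. The log2 difference was 3.13 ± 0.15 (edgeR adjusted p = 1.26e-48). Otop1 was 1.96, 0.952, 1.32, 1.03, 2.10, 4.76, 2.46, 4.31 and 3.88 CPM in the same order, against at most 1.14 CPM in the Ucp1-low males, so that the libraries at 0.952 and 1.03 CPM overlapped with them, and it differed by 2.41 (adjusted p = 5.20e-25). Slc27a2 differed by 3.40 (adjusted p = 1.06e-08), Kcnk3 by 1.89 and Letmd1 by 0.64, and all 5 passed without the B-cell libraries. A Ucp1-low male with 0.421 CPM of Ucp1 had 0.977 CPM of Slc27a2. Only the Ucp1-high male with the most Slc27a2, at 1.31 CPM, lay above it. In all, 11 of 25 brown adipocyte genes were higher in males (10 of 25 without the B-cell libraries), 10 of 17 general adipocyte genes (5 of 17) and 9 of 19 genes of fatty acid synthesis (8 of 19). Adrb3 differed by 2.75, Pck1 by 2.63 and Fasn by 2.32, and all passed in both fits, while Adipoq (1.06, adjusted p = 0.00941) did not pass without the B-cell libraries (adjusted p = 0.699). Neither Dio2 nor Prdm16 passed in males (-0.13, adjusted p = 0.899, and -0.18, adjusted p = 0.809). Over the 9 Ucp1-high males r with Ucp1 was 0.662 for Cidea, 0.694 for Otop1, 0.908 for Letmd1 and -0.174 for Slc27a2, and without the 2 libraries farthest from the median of Ucp1 it was 0.283, 0.513, 0.167 and 0.792, so these values rested on few libraries.

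**Figure D5:**
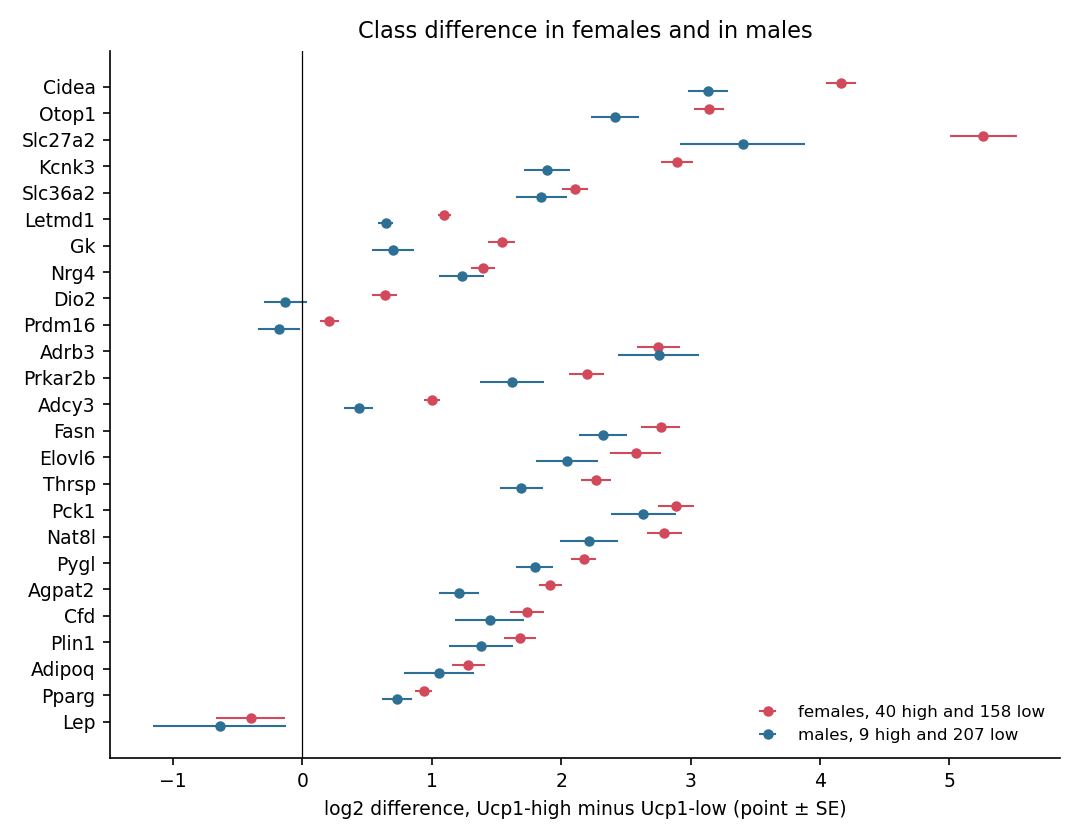
Log2 difference between Ucp1-high and Ucp1-low libraries (x axis, points with SE bars) for 25 genes (y axis) in females and in males. Both sexes have positive differences for the brown adipocyte, lipogenic and general adipocyte genes shown, except Dio2 and Prdm16 in males, and Lep lies below 0 in both.

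The difference between the sexes was itself tested with an interaction of sex and class over all 4 groups. All libraries were used, the B-cell ones included, and no such fit was made without them. By edgeR's quasi-likelihood test, 13 genes (0.0658%) had a larger and 0.947% a smaller log2 difference in males than in females. Cidea was among the latter, at -0.99 on the log2 scale (males minus females, adjusted p = 0.0398), as were Letmd1 (-0.43), Adcy3 (-0.56) and Dio2 (-0.77, adjusted p = 0.0381). The Ucp1-high males also had less Ucp1 than the Ucp1-high females, with medians of 11.4 and 41.2 CPM, and the part of that gap in these differences was not tested.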

How the data were processed

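One polyA-selected RNA library was made per mouse and sequenced with paired ends. The authors aligned reads to the transcriptomes of the founder strains and deposited expected counts per gene, which EMASE in GBRS estimates and which need not be whole, together with scores that the authors made from them by DESeq2's variance-stabilising transformation, on a scale like log2. The genome build is GRCm38. Strand use is not given in the sources used here. Generation was read from the sample titles. The library blocks were made here from the library numbers in the titles, and no label gives them. A new block began after a gap of more than 3 numbers, and longer stretches were cut at a set length.

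Expected counts were rounded, genes were kept by filterByExpr (minimum count 10, 19754 of 20612 genes), scaled by TMM and tested by the quasi-likelihood test of edgeR 4.0.16 in R 4.3.3, with generation as covariate and Benjamini-Hochberg adjustment over all genes tested. Of 474 libraries, 235 were labelled female (40 Ucp1-high, 158 Ucp1-low) and 239 male (9 and 207). Every adjusted p in the text is from this edgeR test and adjustment, except the value named with limma, and other covariates or libraries are named where they were used. Gene levels are CPM on the TMM-scaled total, and Ucp1 classes use the plain total. Alternatives used limma 3.58.1 on the deposited scores, DESeq2 1.42.0, other limits, scalings, covariates and subsets. The scripts were tested on simulated data.

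Named genes are Ucp1, Cidea, Otop1, the 20 largest rises and 10 largest falls called by edgeR and limma alike at a mean of at least 1 CPM with 1 direction in every generation, up to 4 members of each of 24 lists, and a few genes always given, of which Elovl3 and Fgf21 were not analysed here. Some members that the rule or a list would name are not reported here. The rule was applied again without the B-cell libraries, and 19 further genes were named after their values were seen, as was the B-cell limit. The members and lists were chosen with earlier results of these data known. Animals are the replicates, and intervals of counting cover counting error only.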

Additional observations from a re-analysis of the deposited data

Results flagged for a closer look

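The class difference in males minus that in females passed the test (edgeR's quasi-likelihood test of the sex by class interaction, adjusted p under 0.05) for 9 genes named here. On the log2 scale it was -0.99 for Cidea, -0.43 for Letmd1, -0.77 for Dio2 and -0.56 for Adcy3, genes used by brown adipocytes. It was -4.59 for Ighg2c, an immunoglobulin heavy chain, and -3.57 for Jchain, which joins immunoglobulins, both made by plasma cells. It was -3.11 for Krt8, -1.86 for Krt19 and -0.52 for Dpp4. The interaction used all libraries and was not fitted without the B-cell ones. In females Ighg2c and Jchain differed by 4.46 and 4.39 in all libraries, and both turned negative without the B-cell libraries, as given below.

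Among the 9 Ucp1-high males, the highest level lay far from the other 8 for 10 named genes, with chance flagging about 1 in 20 groups. The highest library was taken for each gene apart, and the genes need not share it. The highest level was 1.31 CPM for Slc27a2, 2.97 CPM for Clstn3, 5.77 CPM for Adcy3, 42.6 CPM for Thrsp, 5.72 CPM for Sln and 0.403 CPM for Th. For Ighg2c it was 6.34 CPM, for Jchain 3.30 CPM, for Gcnt2 22.6 CPM and for F2r 15.6 CPM.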

How the results depend on the processing

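The share of tested genes that were higher (15.7%) and lower (11.9%) in Ucp1-high females changed with the libraries, scaling and covariates used. It became 3.42% and 0.835% without the B-cell libraries, 3.46% and 0.709% with the B-cell limit at 5 CPM, where Gm5532 no longer passed (adjusted p = 0.0526), 3.85% and 0.304% without them under total count scaling, 1.28% and 0.506% without them at a given adipocyte score, and 25.0025% and 1.96% in all libraries under total count scaling. With the adipocyte score it was 7.45% and 3.35%, and with a slow-fibre score added 7.30% and 3.36%. A filter at 1 CPM left 1951 genes higher, 15.8% of the 12359 then tested. Within generations 17, 18, 19, 21 and 23 it was 6.82%, 9.65%, 3.797%, 4.93% and 1.02% higher and 2.08%, 1.503%, 0.167%, 0.435% and 0.147% lower, and within the 5 library blocks 5.06%, 7.44%, 3.41%, 4.24% and 3.39% higher and 0.582%, 1.19%, 0.881%, 0.688% and 0.0861% lower, with fewer samples in each. Males gave 1.83% and 0.258%. Without the B-cell libraries, the share that differed at a given adipocyte score went from 10.8% to 1.79%, and that in males from 2.09% to 0.501%.

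87 named genes kept their call with DESeq2, robust fitting, no generation term, no filter, a high limit of 2 CPM and without the libraries whose sex-linked RNA went against the label, and 70 of them did without the B-cell libraries. Signs turned, on the log2 scale, as follows, and the cause was not tested. In males Dio2 was -0.13, Prdm16 -0.18, Zic1 0.11, Myh4 0.0088, Krt8 -1.18, Krt19 -0.64 and Dpp4 -0.030. Within a generation or block Prdm16 was -0.076, Zic1 0.12, 0.12 and 0.056, Th -0.028 and Gcnt2 0.014. Without the B-cell libraries Cr2 was -0.25, Ighd -0.87, Ighg2c -1.45 and Jchain -0.041, under total count scaling -0.21, -0.85, -1.42 and -0.023, with a B-cell limit of 5 CPM, which left in 1 Ucp1-low library more, -0.30, -0.93, -1.45 and -0.086, and at a given adipocyte score Cr2 was -0.17, Ighd -1.11, Ighg2c -1.36, Mpeg1 -0.22, Myh4 0.022 and Cpt1b 0.17. Nnat was -1.14 with the adipocyte score, -1.13 with both scores and -1.14 without the B-cell libraries as well. No paired analysis was possible because each animal has its own number and gave 1 library. Depth limits statements on genes near the level of a few counts, such as Slc27a2 and Th in the Ucp1-low class.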
